A study of Mus musculus with 4 samples.

Results

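The control-only acetylated regions between genes are stretches of mouse genome where an H3K27ac peak was called in the library labelled control, no peak was called in that labelled BN1, and no protein-coding gene was near. To find them, the peaks of both lists were merged wherever they touched, on the placed chromosomes. A merged region was kept where all of its bp came from the control list and where it overlapped no RefSeq protein-coding gene extended by 1000 bp at both ends. This gave 5400 regions covering 4.14 Mb, or 15.5% of the 34906 merged regions of the series. The presence or absence of a peak in each list chose these regions, so the regions were chosen by the peak calls themselves. Their direction, width and fold enrichment are given as a description.

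H3K27ac was profiled by fanChIP, a native chromatin immunoprecipitation that fractionates chromatin first, in CD45.2+ bone marrow cells of C57BL/6 mice. The BN1 group had the genotype cKit(+) BRD9-NUTM1, a leukaemia fusion of the chromatin remodelling subunit BRD9 with NUTM1, and the control group was labelled cKit(+) alone. Both groups share strain, tissue and the cKit label, and the labels' extract protocol names BN1 cells for all 4 samples. There was 1 ChIP library per group, and the 2 input libraries were not analysed here. The labels state neither animal age nor pooling. There is therefore no replicate error anywhere below, no p-value was computed, and every difference describes these 2 libraries. Intervals are exact (Clopper-Pearson) 95% binomial intervals and cover counting error only.

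The peak names inside the files read the other way from the sample titles. Peaks in the list labelled control are named BRNU and peaks in the list labelled BN1 are named BM, abbreviations that the labels do not explain. Groups follow the titles, so "control list" and "BN1 list" mean the lists so labelled, and a direction below holds for the labels only. The BN1 list held 19148 peaks and the control list 28343. Depth is unknown, as neither list gives reads, and the part of unequal depth in the longer control list was not tested.

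H3K27ac, acetylation of lysine 27 of histone H3, is written by the acetyltransferases p300 and CBP and marks active promoters and enhancers. Away from genes it lies mostly on enhancers, short stretches bound by transcription factors that can act on a promoter over a long distance. In blood cells enhancers differ more between cell types than promoters do, and clusters of them surround genes of cell identity and growth such as Myc. The nearest gene is a convention for naming a region and need not be the gene that it acts on.

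Sequences were read from tables of promoters and microRNAs, and no genome sequence was used here. Regions between protein-coding genes can still cover non-coding genes, and for those a sequence can be shown. Hairpins of 4 microRNAs overlapped a control-only region: Mir29b-2, Mir212, Mir132 and Mir3089. A mature strand of each is shown because these short RNAs have a known seed (capitals, bases 2 to 8, the part that pairs with targets). Sequences are from RefSeq on GRCm38.p6.
mmu-miR-29b-3p: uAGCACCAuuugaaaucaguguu
mmu-miR-212-3p: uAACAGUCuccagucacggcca
mmu-miR-132-3p: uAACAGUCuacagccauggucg
mmu-miR-3089-5p: uGAGUUCAgggacagcgugucu
The 3p strands of miR-212 and miR-132 had the same seed. The region over Mir212 (chr11:75173306-75173720, 415 bp, fold enrichment 5.87 in the control list) lay 2.22 kb from Ovca2 and reached only the first part of the Mir132 hairpin. It ended at 75173720, before the printed miR-132-3p, which starts at 75173723. Mir29b-2 lay in a region of 601 bp (chr1:195036915-195037515, fold enrichment 5.03) with Mir29c 0.031 kb beyond its edge. Within 10 kb of Mir29b-2 the BN1 list had 0 bp of peaks and the control list 3826 bp. miR-29b and miR-29c belong to a family known for lowering collagen transcripts and the DNA methyltransferases. Mir3089 lay in a much wider region of 4303 bp (chr2:30717002-30721304, fold enrichment 14.5).

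Promoter windows of long non-coding RNAs, 250 bases before to 50 after the start, overlapped control-only regions at 175 starts of 147 genes. The letters TGANTCA, bound by AP-1 factors, occurred on either strand in 17.1% of these windows (11.9 to 23.6), against 9 of 100 windows in BN1-only regions between genes (4.20% to 16.4%), 11.6% of 215 windows in shared regions between genes and 9.31% of all 11588 lncRNA windows. The letters GAAANNGAA, bound by interferon regulatory factors, also occurred in 17.1% of the windows in control-only regions, against 12 of 100 in BN1-only regions, 11.6% in shared regions and 9.32% of all windows. The intervals of the control-only and BN1-only windows overlap for both motifs. PU.1 (GAGGAAGT) ran the other way between these classes, at 5.14% in control-only regions (2.38 to 9.54) and 11 of 100 in BN1-only regions (5.62% to 18.8%), again with overlapping intervals, beside 3.33% of all windows. KLF/SP (GGGCGG) was in 35 of 175 windows in control-only regions (14.3% to 26.7%), 39.1% of those in shared regions (32.5 to 45.9) and 16.3% of all. The shared regions' windows were also richer in GC, with medians of 50.7% in control-only and 54.3% in shared regions.

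In all, 15 motifs were searched on both strands. RUNX (TGTGGT) was in 19.4% of windows in control-only regions and 2323 of all 11588 windows. The letters AGATAA, bound by GATA factors, were in 16.6% and in 1620 of all windows, and C/EBP (TTGCNNAA) in 12.6% and in 1385 of all windows. An E-box (CAGCTG) was in 21.7% and in 17.7% of all, and the ETS core (CCGGAA) in 9.71% and in 7.94% of all. The CTCF core (AGGGGGC) was in 9.14% and in 6.39% of all, EBF1 (CCCNNGGGA) in 6.86% and in 5.26% of all, and HOX-PBX (TGATTNAT) in 5.14% and in 4.08% of all. GFI1 (AATCANNGC) was in 5.71% and in 2.86% of all, and MiT/TFE (TCACGTGA) in 1.14% and in 0.501% of all. A MAF core (TGCTGAC) was in 6.86% of windows in control-only regions (3.59 to 11.7), 1 of 100 in BN1-only regions (0.0253% to 5.45%) and 5.35% of all. Matches of different motifs may overlap, and a match describes letters, not a bound site.

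Windows of 3 such promoters, each wholly inside a control-only region, are printed to show the matches in place. They were picked after their values were seen, as the windows in the strongest regions with an IRF match, with an AP-1 match and with both. Capitals mark IRF and AP-1 matches on either strand, and sequences are from RefSeq on GRCm38.p6, in the direction of transcription.
4930447M23Rik: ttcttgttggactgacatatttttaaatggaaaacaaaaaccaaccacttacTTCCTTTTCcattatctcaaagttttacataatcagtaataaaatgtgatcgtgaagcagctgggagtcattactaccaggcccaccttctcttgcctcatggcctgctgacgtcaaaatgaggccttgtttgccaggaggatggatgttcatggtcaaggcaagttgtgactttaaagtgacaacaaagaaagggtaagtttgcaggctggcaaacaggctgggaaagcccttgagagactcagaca
Gm42312: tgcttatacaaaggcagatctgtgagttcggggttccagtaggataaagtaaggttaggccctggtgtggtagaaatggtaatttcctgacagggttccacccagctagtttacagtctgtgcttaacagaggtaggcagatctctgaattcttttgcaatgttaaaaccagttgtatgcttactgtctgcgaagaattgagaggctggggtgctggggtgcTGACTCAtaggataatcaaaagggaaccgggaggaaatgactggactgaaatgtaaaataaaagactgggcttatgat
Gm39473: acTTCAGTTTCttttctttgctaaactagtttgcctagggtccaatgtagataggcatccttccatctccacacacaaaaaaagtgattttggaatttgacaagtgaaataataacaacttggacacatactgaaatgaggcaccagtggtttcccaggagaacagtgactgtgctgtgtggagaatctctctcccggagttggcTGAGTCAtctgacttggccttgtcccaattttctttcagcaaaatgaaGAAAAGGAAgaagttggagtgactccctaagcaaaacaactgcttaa
The first window (chr2:19344067-19344366, plus strand) lay in a region of 1341 bp with a fold enrichment of 24.7, 26.6 kb from Msrb2, and holds 1 IRF match. The second (chr4:86710788-86711087, plus strand) lay in a region of 4023 bp with a fold enrichment of 18.6, 34.5 kb from Dennd4c, and holds 1 AP-1 match. The third (chr12:74825050-74825349, plus strand) lay in a region of 899 bp with a fold enrichment of 11.2, 71.4 kb from Kcnh5, and holds 1 AP-1 and 2 IRF matches.

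Control-only regions made up 47.7% of all merged regions of the series, and between genes they made up more, 55.6% of 9716 (54.6 to 56.6). The rest of the regions between genes were 2833 BN1-only and 1483 shared regions. Seen the other way, 32.5% of the 16638 control-only regions lay between genes (31.7 to 33.2), against 39.6% of 7159 BN1-only regions and 13.3% of 11109 shared regions. The excess over BN1-only regions depended on list length. With the control list limited to its strongest peaks by −log10 q, as many as the BN1 list held, 3006 control-only and 3108 BN1-only regions lay between genes, and the control-only share was 41.0%.

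Most control-only regions between genes were narrow and weakly enriched. Their width ran from 209 to 7946 bp with a median of 503 bp (quartiles 313 and 924), against a median of 449 bp for BN1-only regions between genes, 1354 bp for shared regions between genes and 501 bp for control-only regions at genes. Fold enrichment, the authors' own value for a peak relative to background, ran from 1.23 to 61.8 with a median of 5.41 (quartiles 4.07 and 7.70). In 41.3% of the regions, and in 32.2% of all control peaks, it was a multiple of 0.387, so weak values come in coarse steps. In the same list its median was 8.76 in shared regions between genes and 5.06 in control-only regions at genes. A tail of strong regions existed, with 99 above a fold enrichment of 20 and 358 wider than 2000 bp. At a −log10 q of at least 10 stood 1940 regions, or 35.9%.

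**Figure D1:**
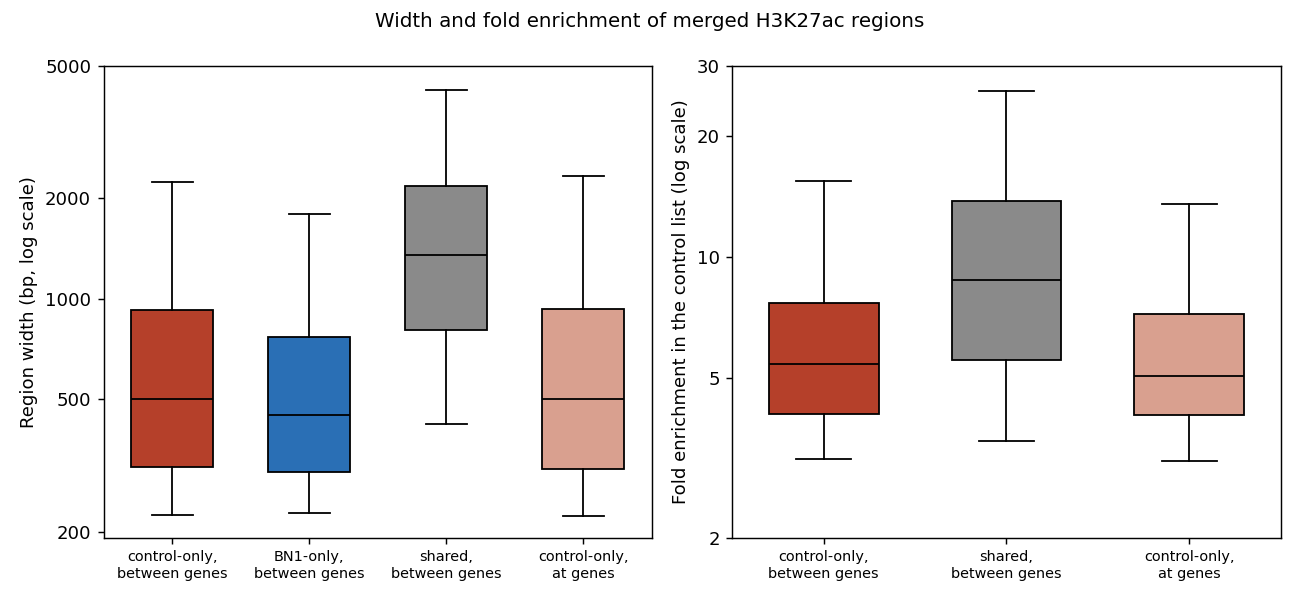
Boxes show quartiles and median, and whiskers the 5th and 95th percentiles, of region width (left, bp, log scale) and of fold enrichment in the control list (right, log scale). Control-only regions between genes had a median width of 503 bp and a median fold enrichment of 5.41, against 1354 bp and 8.76 in shared regions between genes.

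The stronger a control region between genes was, the less often it was control-only. The share that was control-only was 89.2% of 2539 regions under a fold enrichment of 5, 80.0% of 2937 between 5 and 10, 59.5% of 1151 between 10 and 20, 42.8% of 187 between 20 and 30 and 27.5% of 69 above 30. At the edges of the rule, the 40 regions less than 100 bp beyond the gene margin had a median fold enrichment of 5.16, against 4.05 in the 43 control-only regions up to 100 bp inside it. The 11 regions within 100 bp of a BN1 peak had a median of 4.45, and the 15 shared regions with at most 100 bp in common had 3.76.

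The nearest other control-only region between genes was a median of 3646 bp away, and 2196 regions had one within 1000 bp. The rule barred protein-coding genes that near but not other regions, so this distance and that to a gene are not alike. The nearest protein-coding gene was a median of 19965 bp away (quartiles 6483 and 53938), against 17875 bp for BN1-only and 15311 bp for shared regions. Within 10 kb of a gene lay 33.9%, within 50 kb 73.3% and within 100 kb 84.8%. Another control-only region between genes stood within 12.5 kb in 62.6% of cases. The nearest BN1 peak was a median of 24292 bp away, and 409 regions had one within 1000 bp.

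Among the regions whose nearest gene had a strand in the tables, 60.5% lay upstream of that gene (2516 of 4162, 58.9 to 61.9). The share was 57.1% for BN1-only regions (55.0 to 59.2) and 54.5% for shared regions (51.6 to 57.4). Upstream regions thus outnumbered downstream ones in all 3 classes. The share of sequence between genes on each side was not computed, so these shares have no background. For 1238 control-only regions the nearest gene had no strand.

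The 10 strongest control-only regions lay 0.648 to 156 kb from the nearest BN1 peak, with a median of 33.1 kb. The highest fold enrichment, 61.8, belonged to a region of 1003 bp (chr1:64301192-64302194) that lay 179 kb upstream of Klf7, a Krüppel-like transcription factor. The nearest BN1 peak to it was 102 kb away. Next came a region 34.0 kb downstream of Pttg1, the gene of securin, with a fold enrichment of 51.8 (chr11:43384813-43386221). A region of 4663 bp lay 23.3 kb upstream of Hilpda, which encodes a lipid droplet protein induced by hypoxia, at 44.9 (chr6:29244497-29249159).

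Regions nearest to Pttg1ip2 (40.2) and Rnf112 (39.2) followed. Vav3, a guanine nucleotide exchange factor of immune receptor signalling, had a region at 37.9 that lay 83.3 kb upstream. Runx1, a master transcription factor of blood stem cells, had one at 37.1 that lay 26.8 kb downstream (chr16:92571459-92574688). Anpep, which encodes the myeloid surface peptidase CD13, had one at 36.7 that lay 8.93 kb upstream, with the nearest BN1 peak 156 kb away. Rbpj, the DNA-binding effector of Notch signalling, had one at 36.0, and Timp2, an inhibitor of matrix metalloproteinases, one at 35.6.

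The widest regions were other ones, and the 10 strongest and the 10 widest shared 0 regions. A region of 7946 bp lay 2.83 kb downstream of Dner, which encodes a Notch ligand known from neurons. A region of 7596 bp lay 4.70 kb upstream of Mdm2, the ubiquitin ligase of p53. Regions of 6557 and 6551 bp lay nearest to Lpp, a focal adhesion protein, and to Socs3, a feedback inhibitor of cytokine signalling. Agps, an enzyme of ether lipid synthesis, followed with 6222 bp. The others were nearest to Cetn1 (6157 bp), Ccny (6055 bp), Cd27 (5465 bp), A4galt (5361 bp) and Klf14 (5178 bp).

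Each region was assigned to its nearest protein-coding gene. Of 21883 such genes, 2591 were nearest to at least 1 control-only region, or 11.8%, against 1484 genes for BN1-only regions and 1068 for shared regions. At least 5 control-only regions fell to 204 genes, which together held 1465 regions, or 27.1% of all. Over the gene itself and 1000 bp at each side, the same 204 genes had a median of 884.5 bp of peaks in the BN1 list and 2696.5 bp in the control list. Over the 12065 genes with a peak in either list the medians were 1130 bp in the BN1 list and 1507 bp in the control list. The 204 genes were not so limited and include genes without such a peak, such as Ppara.

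Myc, the transcription factor of cell growth, had the most by number, with 32 control-only regions against 2 BN1-only and 0 shared ones. A number depends on how much sequence between genes lies nearest to a gene, 1.42 Mb for Myc. Per Mb of it Myc held 22.5 control-only regions, Klf6 20.8, Cited2 11.3 and Ccl2 336, beside 3.33 over all genes. All 32 regions of Myc lay at higher coordinates than the gene, with summits 54.1 to 584 kb from its lower end on chromosome 15. Their fold enrichment ran from 2.89 to 13.5 with a median of 6.34, and their width reached 3232 bp. The strongest was a region (chr15:62055383-62056538) at 13.5. Of the 32, 17 overlapped Pvt1, a long non-coding RNA gene next to Myc, which held 2 BN1-only regions. The ends of Myc itself had a peak in both lists.

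**Figure D2:**
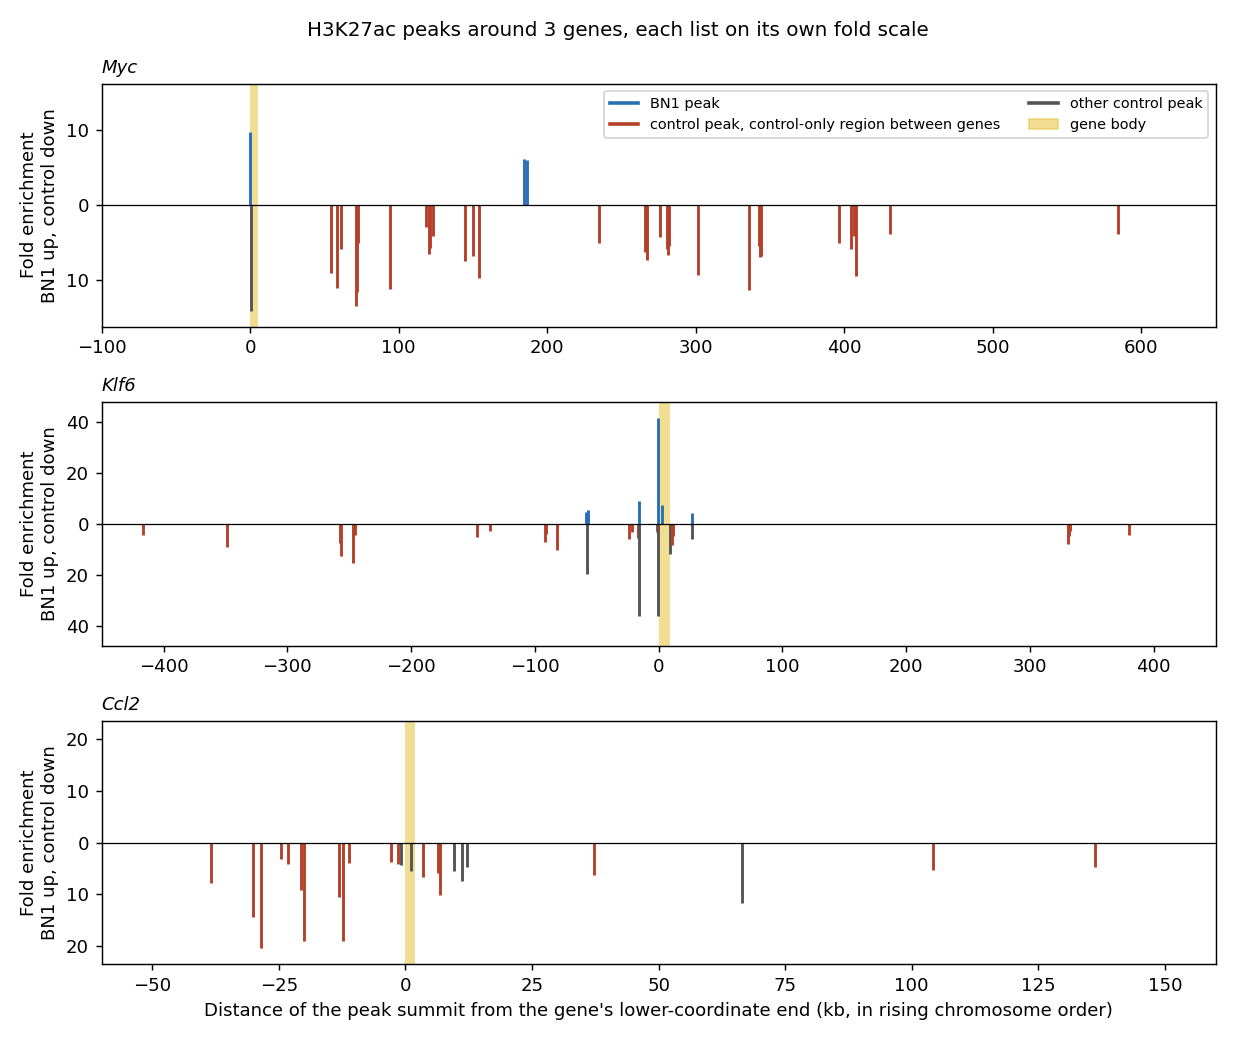
Each line is a peak, placed by the distance of its summit from the lower-coordinate end of the gene (kb), with its fold enrichment upwards for the BN1 list and downwards for the control list, on scales that cannot be compared between lists. Around Myc, 32 control-only regions stood against 2 BN1-only regions, whereas Klf6 had 3 shared regions besides its 20 control-only ones and the 200 kb on either side of Ccl2 held no BN1 peak.

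Klf6, an immediate early zinc finger factor, had 20 control-only, 0 BN1-only and 3 shared regions. Its control-only regions lay on both sides of the gene, from 1.35 to 416 kb away, with fold enrichments of 2.89 to 15.5. The strongest of its shared regions had a fold enrichment of 36.0 in the control list, above all 20 control-only ones. Cited2, a p300/CBP-binding coregulator, had 17 control-only, 3 BN1-only and 3 shared regions. Atp2b1, a plasma membrane calcium pump, had 16, 0 and 1.

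Not every gene with many control-only regions was free of BN1-only ones. Irf2bp2, a corepressor partner of IRF2, had 13 control-only, 11 BN1-only and 4 shared regions. Zfp386 had 16, 4 and 5, and beside it lies the immunoglobulin heavy chain locus, which is not among the protein-coding genes of the table and held 19 control-only, 8 BN1-only and 6 shared regions. With all RefSeq genes avoided, 0 control-only regions remained nearest to Zfp386. The light chain loci were the reverse, with 0 control-only and 13 BN1-only regions in Igk and 0 and 9 in Igl. Ccdc54 (15, 0 and 2), Lpp (14, 1 and 1), Reep3 (13, 0 and 1) followed. Ccl2 (12, 0 and 0) tied with Ppara, Osbpl8, Zeb2, Zfat, Rgs1 and Rap2b at 12 control-only regions, and was listed first for the bp they cover.

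**Figure D3:**
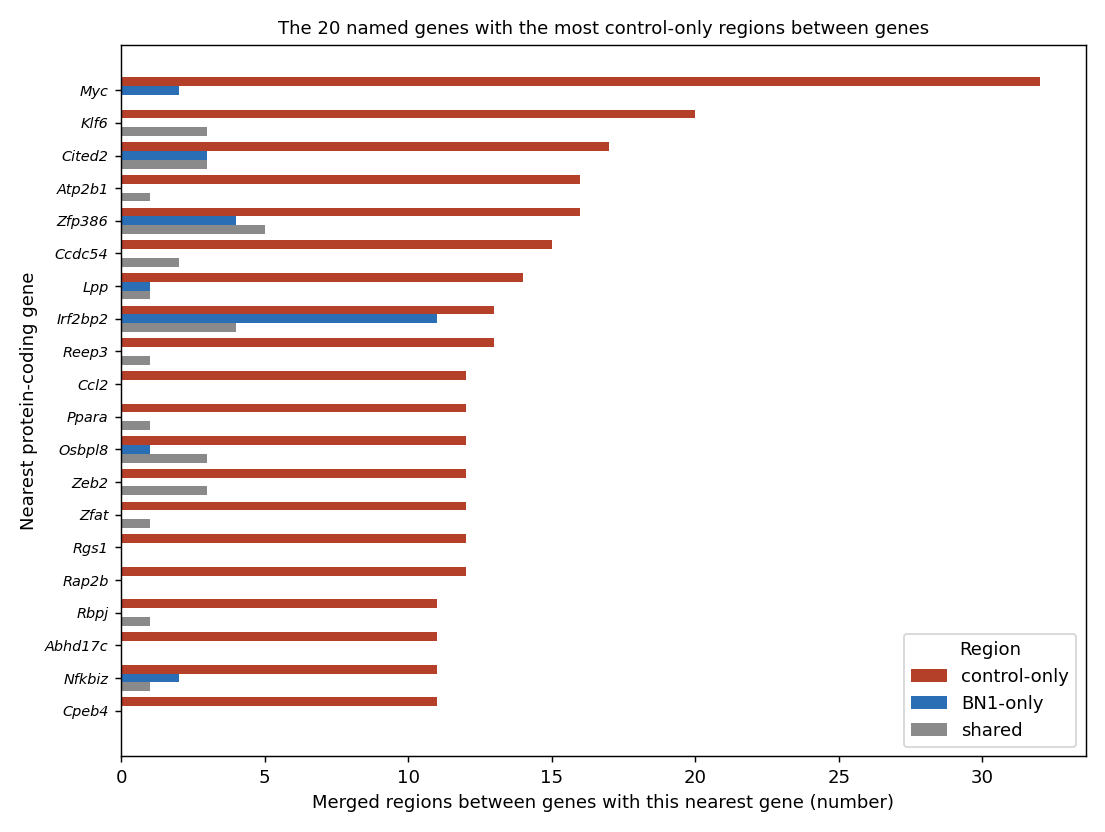
Bars give the number of control-only, BN1-only and shared regions between genes whose nearest gene is the one named, for the 20 named genes with the most control-only regions. Irf2bp2 stands out with 13 control-only and 11 BN1-only regions, while Klf6, Ccl2 and Rgs1 had no BN1-only region.

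Control-only regions stitched within 12.5 kb formed 3227 groups, of which 486 held at least 3 regions and together 35.9% of all regions. In groups of at least 3 stood 34.8% of BN1-only and 14.6% of shared regions. The largest group, of 15 regions, covered 17905 bp of a span of 47436 bp around Ccl2 and Ccl7, which encode monocyte chemoattractants (chr11:81996394-82043829). That span held 0 bp of BN1 peaks and 19582 bp of control peaks. Within it, the strongest region had a fold enrichment of 20.4 and lay 25.4 kb from Ccl2, followed by regions at 19.1 and 18.9.

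The next group was 12 regions near Ppara, a nuclear receptor of fatty acid oxidation, covering 14441 bp. Its span of 39697 bp held 1702 bp of BN1 peaks and 20569 bp of control peaks, and the let-7 hairpins Mirlet7c-2 and Mirlet7b lay 2.75 and 3.46 kb from its nearest region. The other 3 of the 5 largest groups had 0 bp of BN1 peaks in their spans. They were 12 regions near Ndst1 and Rps14, 10 near Nfe2l2, the oxidative stress factor NRF2, and Agps, and 10 near Lrp12. Of these, the group near Nfe2l2 and Agps covered the most, 12160 bp.

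Gene lists of blood cell types and programmes were counted by how many of their genes were nearest to at least 1 control-only region, beside 11.8% of all genes, and to at least 1 BN1-only region, beside 6.78% of all genes. The lists were chosen with earlier results of these data known, and no list was tested. By the share of genes, the monocyte and macrophage list stood highest, with 22 of 32 genes (68.8%) nearest to a control-only and 8 nearest to a BN1-only region. Its genes held 53 control-only and 26 BN1-only regions, beside 5400 and 2833 over all genes. Of the list, 19 genes had more control-only regions and 3 more BN1-only ones, beside 2299 and 1138 of all genes. A share of genes depends on how much sequence between genes each has. Per Mb of that sequence the monocyte and macrophage list held 11.2 control-only regions, beside 3.33 over all genes. It stood below the chemokine (35.2), eosinophil (29.0), inflammatory (18.3) and neutrophil (13.3) lists. The eosinophil value rests on 9 regions, 6 of them nearest to Ccr3. In the neutrophil list BN1-only regions stood at 49.4 per Mb. BN1-only regions in the monocyte and macrophage list stood at 5.48 per Mb, beside 1.74 over all genes, so both classes were denser there than over all genes. Of the list's 26 BN1-only regions, 13 were nearest to Ly86. With lists of equal length 15 genes were nearest to a control-only and 8 to a BN1-only region, and the numbers were 11 and 4 once both lists kept only peaks with a −log10 q of 10 or more.

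Klf4, a factor of monocyte differentiation, had 6 control-only, 3 BN1-only and 2 shared regions, with a fold enrichment of up to 14.7. Cd14, the lipopolysaccharide co-receptor, had 6, 0 and 1. Ccr2, the CCL2 receptor of inflammatory monocytes, had 4, 0 and 0, with fold enrichments of 5.41 to 7.73, although neither end of the gene had a peak in either list. Maf, a macrophage transcription factor, had 3, 0 and 0, and Ctss, the protease cathepsin S, had 3, 0 and 2. Ly86, the partner of the receptor RP105, ran against the list with 5 control-only and 13 BN1-only regions. Spi1, the gene of PU.1, was nearest to 0 control-only and 2 BN1-only regions, and Irf8 to 3 of each.

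Chemokines and their receptors came second, with 14 of 27 genes (51.9%) nearest to a control-only and 6 (22.2%) nearest to a BN1-only region. They held 44 control-only and 30 BN1-only regions. Per Mb of sequence between genes these were 35.2 and 24.0, beside 3.33 and 1.74 over all genes, so both classes were dense near these genes. Beside Ccl2, the neutrophil-attracting ligands Cxcl1 (5 control-only regions, fold enrichment of up to 20.9), Cxcl5 (3, up to 18.2) and Cxcl2 (3, up to 25.5) had no BN1-only region. Cxcr4, the receptor that retains progenitors in the marrow, was the opposite case with 1 control-only and 18 BN1-only regions, and held most of the 30 BN1-only regions of the list. This gene was named after its values were seen.

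Inflammatory and immediate early genes had the same number of genes on both sides, 21 of 43 nearest to a control-only and 21 nearest to a BN1-only region. The number of regions was unequal, at 95 control-only and 57 BN1-only. Klf6, given above, held 20 of the 95. Nfkbiz, an atypical IκB protein that switches on secondary response genes, had 11 control-only and 2 BN1-only regions. Atf3, a stress-induced bZIP factor, had 7 and 1. Socs3 and Ier3, an early response gene, had 6 and 0 each, and Dusp6, a phosphatase of ERK, had 6 and 3. Zfp36l2, an mRNA decay factor chosen after its values were seen, had 1 and 8.

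Leukaemia self-renewal genes held 66 control-only and 12 BN1-only regions, of which Myc alone had 32 and 2. By genes the sides were close, with 9 of 22 (40.9%) nearest to a control-only and 8 (36.4%) nearest to a BN1-only region. Zeb2, a zinc finger repressor of myeloid and lymphoid differentiation, had 12, 0 and 3 shared, from 2.18 to 1324 kb away. Runx1 had 6 control-only, 1 BN1-only and 2 shared regions. Cdk6, a G1 kinase of haematopoietic cells, had 4, 0 and 1, with a fold enrichment of up to 27.8. Lmo2, a bridging factor of stem cells, had 4, 2 and 2, and Mcl1, an antiapoptotic BCL2 relative, had 3, 0 and 3.

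Cell cycle genes held 23 control-only and 6 BN1-only regions over 6 and 4 of 26 genes. The mitotic and replication genes Ccnb1, Cdk1, Aurkb, Plk1, Top2a, Pcna and Mcm2, named after their values were seen, had 0 control-only regions. Pcna had 0 Mb of sequence between genes nearest to it and the others 0.00395 (Mcm2) to 0.110 Mb (Cdk1). The part of the amount of sequence in these counts was not tested. Except for Aurkb, with 1, these genes had 0 BN1-only regions too. Ccnd1, cyclin D1, had 5 and 0, with fold enrichments of 3.60 to 8.09, and Ccnd2 had 4 and 2. Mki67, the proliferation marker, had 4 and 2, the control-only ones 41.9 to 197 kb away. The inhibitor genes Cdkn1b and Cdkn1a had 4 and 0 and 2 and 0.

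In 7 of the 20 lists the control-only regions were fewer than the BN1-only ones. These were the neutrophil, B lymphoid, dendritic cell, megakaryocyte and platelet (6 control-only and 18 BN1-only), housekeeping (3 and 6), interferon response (1 and 5) and erythroid (5 and 6) lists. Of the 18 in the megakaryocyte and platelet list, 17 were nearest to Thbs1, a gene named after its values were seen. By genes that list ran the other way, with 3 nearest to a control-only and 2 to a BN1-only region. Neutrophil and granule genes were nearest to a control-only region in 4 of 24 cases (16.7%) and to a BN1-only region in 11 (45.8%), with 7 control-only and 26 BN1-only regions. The 4 genes were Cebpa (3 control-only regions), Fpr1 (2), Mmp9 (1) and Mmp8 (1), and none of them had a BN1-only region. B lymphoid genes were nearest to a control-only region in 5 of 22 cases (22.7%) and to a BN1-only region in 7 (31.8%), with 9 control-only and 30 BN1-only regions, led among the control-only ones by Foxo1 with 5 of each. Dendritic cell genes were nearest to a control-only region in 4 of 20 cases and to a BN1-only region in 9, with 8 and 31 regions and with Id2, an inhibitor of bHLH factors, at 3 and 11. Of the erythroid list, 2 of 24 genes (8.33%) were nearest to a control-only region.

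In bulk peak lists, fewer cells of a type and less acetylation per cell cannot be told apart, and the part of cell make-up in the counts for cell type markers was not tested. Among the remaining lists, stem and progenitor genes stood at 13.6%, mast cell and basophil genes at 12.5%, megakaryocyte and platelet genes at 3 of 20, T and NK genes at 18.2%, fusion partners and their complexes at 18.2% and housekeeping genes at 18.8%. Per Mb of sequence between genes, stem and progenitor genes held 2.24 control-only regions and dendritic cell genes 2.70, both below the 3.33 of all genes. Eosinophil genes stood at 27.3%, with Ccr3 at 6 control-only and 1 BN1-only regions. Stroma and endothelium genes stood at 26.3% but at 3.12 control-only regions per Mb, below the 3.33 of all genes, with 10 control-only and 2 BN1-only regions, among them 3 and 0 at Kdr and 3 and 0 at Cdh5. Genes of other tissues (5.56%), interferon response genes (4.17%) and Hox genes (3.23%) stood below the background. The interferon response and Hox lists have 0.421 and 0.591 Mb of sequence between genes. The neutrophil list has 0.527 Mb and holds 7 control-only and 26 BN1-only regions. The part of the amount of sequence in these shares was not tested.

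**Figure D4:**
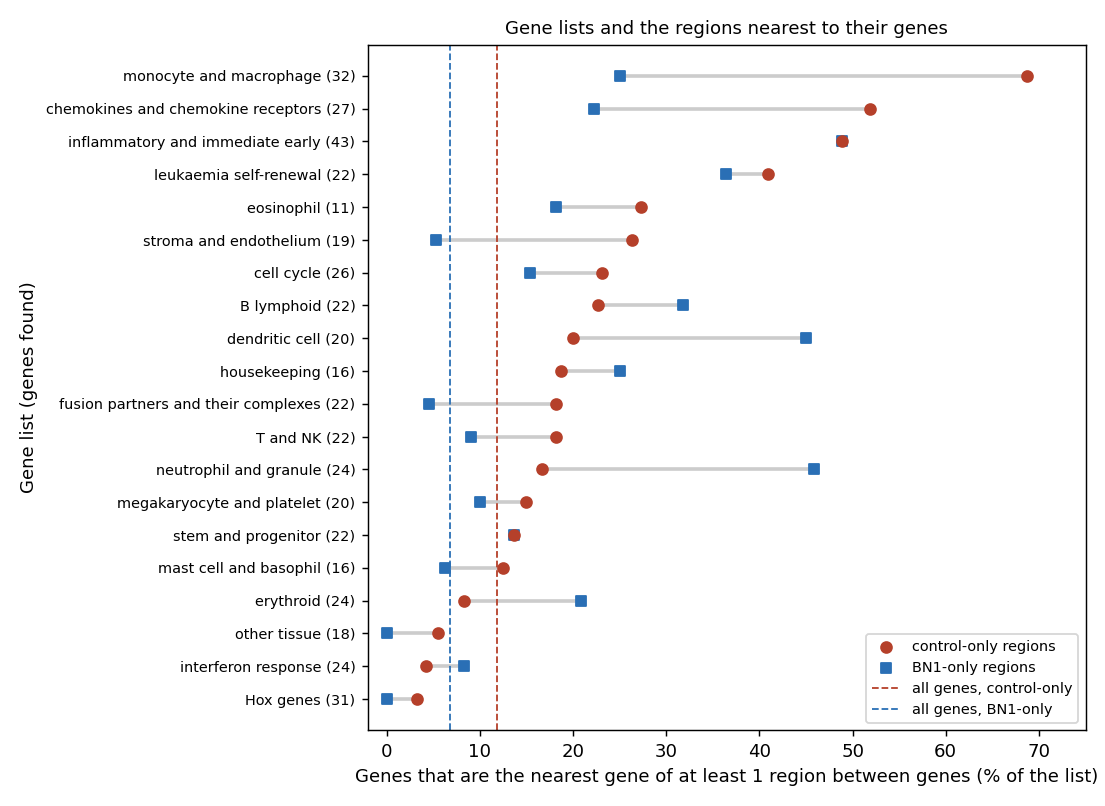
For each list, the circle gives the percentage of its genes nearest to at least 1 control-only region between genes and the square that for BN1-only regions, with dashed lines for all genes (11.8% and 6.78%). The monocyte and macrophage list lies far to the right for control-only regions (22 of 32 genes against 8), and the neutrophil list lies the other way (16.7% against 45.8%).

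Windows of 200 kb on both sides of named loci were read for all regions between genes, whichever gene was nearest. Around Cd34, a marker of stem and progenitor cells, stood 10 control-only, 0 BN1-only and 2 shared regions, and 6 of the 10 had Cd46 as their nearest gene, among them the region over Mir29b-2. Around Cebpa, the granulocyte and monocyte factor, stood 5, 0 and 1, with fold enrichments of 3.29 to 7.99 in the control-only ones. Around Runx1 stood 6, 0 and 1. Around Irf8, a monocyte and dendritic factor, stood 7, 3 and 0, the strongest at 17.2 and 48.9 kb from the gene. Around Gata2 stood 7, 5 and 5 and around Cebpb 7, 5 and 10.

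Other loci had few. Id2 had 3 control-only and 6 BN1-only regions within 200 kb, and its strongest control-only region had a fold enrichment of 25.9. Spi1 had 1 and 2, Erg 2 and 1, Nutm1 2 and 0, Meis1 1 and 0 and Hoxb4 1 and 0. Kit, whose product is the cKit of the labels, had 0 and 1. The ends of Kit had a peak in neither list, and its window held 991 bp of BN1 peaks and 0 bp of control peaks. Hoxa9 and Brd9 had 0 and 0.

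The ends of the nearest gene, meaning 1000 bp to each side of its first and last base, were not used to choose the regions. They come from the same 2 libraries, so they are a description and not independent support. In all, 3.22% of genes had a peak at an end in the BN1 list only and 6.62% in the control list only. The nearest genes of control-only regions had such a peak in the BN1 list only in 2.43% of cases (2.03 to 2.87) and in the control list only in 13.4% (12.5 to 14.4). For BN1-only regions between genes the picture turned round, with 15.1% in the BN1 list only (13.8 to 16.4) and 4.02% in the control list only (3.33 to 4.81). For 55.0% of control-only regions the nearest gene had an end peak in both lists and for 29.1% in neither, beside 38.4% and 51.8% of all genes.

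Counting each of the 2591 nearest genes a single time gave 2.89% in the BN1 list only and 12.7% in the control list only. The share in the control list only was 17.6% for regions under 10 kb from the gene (15.9 to 19.4), 12.2% from 10 to 50 kb, 10.5% from 50 to 200 kb and 8.38% beyond 200 kb (5.69 to 11.8). It varied little with the strength of the region, at 12.8% for fold enrichments under 5, 13.8% from 5 to 10 and 14.3% above 10. Start sites alone were also read within 1000 bp, where the tables gave them for the nearest gene. Of 4162 such regions, 67 had a nearest gene with a start site peak in the BN1 list only. For 459 the peak was in the control list only. Over all 17491 protein-coding genes with a start site given, control-only peaks were also the more frequent, at 1087 genes against 511 BN1-only.

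**Figure D5:**
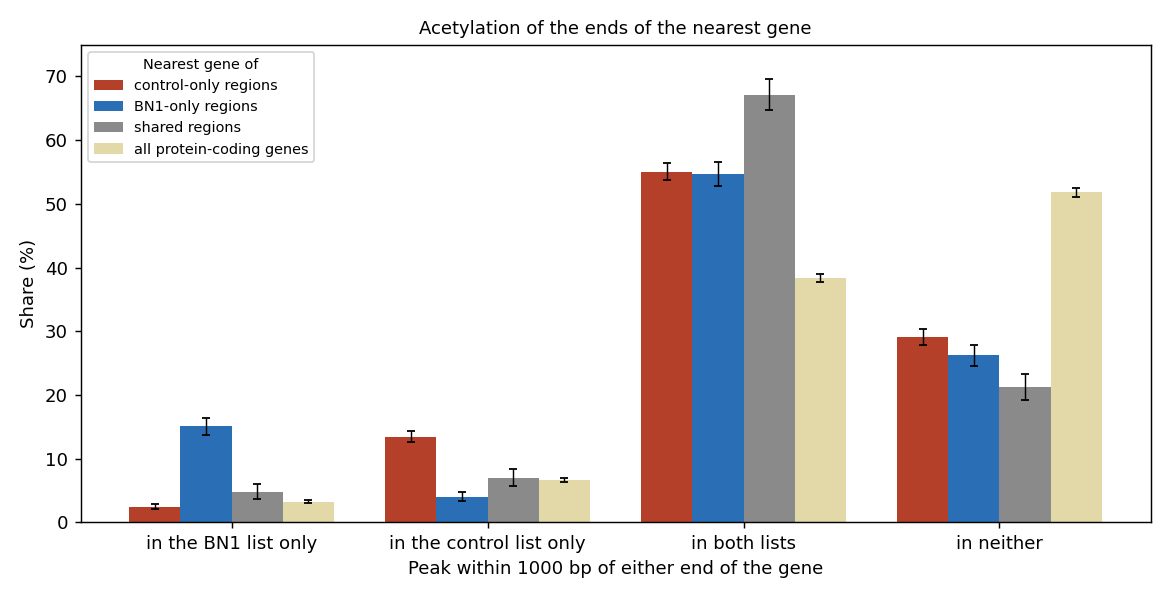
Bars give the percentage of regions whose nearest gene had a peak within 1000 bp of either end in the BN1 list only, the control list only, both or neither, with exact 95% binomial intervals, and the same over all genes. Control-only regions reach 13.4% for ends acetylated in the control list only, and BN1-only regions reach 15.1% for ends acetylated in the BN1 list only.

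Long non-coding RNA genes covered 22.6% of control-only regions between genes (1219 regions), 23.4% of BN1-only and 30.5% of shared ones. After Pvt1, the named ones with the most were Morrbid, which restrains the proapoptotic gene Bcl2l11 in short-lived myeloid cells (9 control-only, 1 BN1-only and 3 shared regions), and Lncpint, a p53-induced RNA (7, 0 and 4). Zmiz1os1 had 5, 0 and 1, Igf1os 4, 0 and 0, and Lockd, downstream of Cdkn1b, 4, 0 and 1. Firre, which lies on the X chromosome and organises chromatin, had 4, 6 and 3. These genes were named after their values were seen. Transfer RNA genes overlapped 10 control-only regions (0.185%), 0 of 2833 BN1-only regions, for which the interval reaches 0.130%, and 31 shared regions (2.09%).

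Across chromosomes, the control-only share of regions between genes was highest on chromosome 6, at 67.2% (63.4 to 70.7; 444 of 661 regions). Chromosome 6 also had the highest share of control-only regions at genes, 54.7% against 44.6% over all chromosomes. The lowest shares between genes were 44.0% on chromosome 19 (38.1 to 49.98) and 42.2% on the X chromosome (34.3 to 50.4), leaving aside the Y chromosome with 10 regions. Chromosome 6 had 136 BN1-only and 81 shared regions between genes.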

How the data were processed

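H3K27ac peak lists of 2 ChIP libraries, BN1 and control, were analysed, with groups taken from the sample titles. The submitters' processing notes name MACS3 3.0.1, Bowtie2 2.5.4, deepTools 3.5.1 and Picard 3.2.0, and the build mm10, without role or order. How the input entered and which threshold was set is not given in the sources used here. The authors' peaks come with a fold enrichment (a linear ratio), a −log10 p-value and a −log10 q-value as deposited by the authors, and a deposited score that was not used. Minimum −log10 q-values were 1.30 (BN1) and 1.32 (control). Fold enrichment was used only within its own list. Read depth is unknown, and depth limits which weak peaks could be called.

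Peaks on the placed chromosomes (19140 BN1, 28315 control) were merged at a distance of 0 bp, classified and assigned to the nearest of 21883 protein-coding genes of a RefSeq table of GRCm38.p6, the assembly of mm10. Merging, gene overlap and nearest distances were checked against bedtools 2.31.1 on simulated and deposited intervals. Strand was given for only part of the genes. Without a genome sequence, the planned motif count in summit windows and its alternatives were not run; motifs were searched in lncRNA promoter windows instead. A window overlapping regions of several classes was counted with shared, then with BN1-only regions.

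The regions and the 20 gene lists (445 of 447 symbols found, Gltscr1 and Znf532 not) were chosen with earlier results of these data known. Named genes are the 10 strongest and 10 widest regions' nearest genes, the 10 genes with the most regions, the 5 largest stitched groups, up to 6 genes per list and 16 fixed loci, leaving out predicted genes. Other genes are marked in the text as chosen after their values were seen or stand there as neighbours of a printed sequence. Alternatives changed the −log10 q minimum, list length, gene margin, merging distance, chromosomes and gene set. Computation ran in Python 3.11.15 with scipy 1.17.1, pandas 2.3.3 and numpy 2.4.6. Some results are not reported here.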

Additional observations from a re-analysis of the deposited data

How the results depend on the processing

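The number of control-only regions between genes (5400) fell to 2288 when both lists were limited to a −log10 q of 10 or more, and was 3006 with lists of equal length and 3565 with peaks up to 1000 bp apart merged, and stayed within 1.5 times of it under the other settings. Their share of regions between genes (55.6%) was 54.5% and 56.6% at −log10 q minimums of 5 and 10, 41.0% with equal lists, 52.4% with wider merging and 57.6% with all RefSeq genes avoided. Their share of control-only regions (32.5%) was 34.1% with equal lists, 34.3% with wider merging, 33.6% and 25.9% with gene margins of 500 and 5000 bp and 23.2% with all RefSeq genes avoided. Median fold enrichment (5.41) was 6.75 and 9.08 at −log10 q minimums of 5 and 10, 7.34 with equal lists and 6.04 with wider merging, and median width (503 bp) was 720, 1096, 796.5 and 764 bp under the same settings. The median gene distance (19965 bp) was 18575 and 29367 bp with margins of 500 and 5000 bp, 21591.5 bp with equal lists, 21907 bp with wider merging and 17811 bp with all RefSeq genes avoided. The median distance to a BN1 peak (24292 bp) was 31807 and 39759 bp at −log10 q minimums of 5 and 10, 28219 bp with equal lists, 31520 bp with wider merging and 31961 bp with a margin of 5000 bp. The share within 12.5 kb of another such region (62.6%) was 51.8% and 39.0% at those minimums, 47.7% with equal lists, 34.3% with wider merging and 59.3% with all RefSeq genes avoided. The share whose nearest gene had an end peak in the control list only (13.4%) was 14.7% and 15.1% at those minimums, 11.6% with equal lists and 12.4% with a margin of 5000 bp. Fewer peaks or wider joins enter these settings by construction. Other causes were not tested.

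Genes of the monocyte and macrophage list with a control-only region numbered 11 to 22 over all settings and those with a BN1-only region 4 to 8. For the neutrophil list the numbers were 2 to 4 and 7 to 11. Control-only regions nearest to Myc numbered 14 to 32, to Klf6 9 to 20 and to Ccl2 6 to 13. No paired analysis was possible because each group has 1 library. The lists carry no depth, so a region missing from one of them was not called, which is not the same as not acetylated.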
